A study of Mus musculus with 4 samples.

Results

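The genes described here encode the machinery on the lysosome that senses amino acids and passes the signal to mTORC1. They comprise the subunits of the V-ATPase, taken as every gene whose array name begins with Atp6v0, Atp6v1 or Atp6ap, together with the Ragulator, the Rag GTPases, the mTORC1 kinase complex and its nearest regulators and readers. The V-ATPase genes follow from that naming rule, and the others come from a list of named genes. Together they are 53 of the 22905 gene names on the array, of which 25 belong to the V-ATPase and 28 to the other complexes. The scanner software called the probe well above background on each of the 4 arrays for 43 members, and on at least 1 array for 48. The 5 others (Atp6ap1l, Atp6v0a4, Atp6v1b1, Atp6v1g3 and Rragb) were not well above background on any array, and no ratio is given for them.

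RNA came from mouse bone marrow-derived macrophages (BMDMs) of C57BL/6J mice at 10 weeks of age, grown for 6 days in L929 cell supernatant and then stimulated for 2 days. Wild-type BMDMs received IFN-γ at 20 ng per ml with LPS at 100 ng per ml (WT M1), IL-4 at 50 ng per ml (WT M2), or IL-4 at 50 ng per ml with 250 nM Torin1, an inhibitor of the mTOR kinase (Torin1 M2). BMDMs labelled p18 (2400001E08Rik) -/- received IL-4 at 50 ng per ml (KO M2), and p18 is an older name of Lamtor1. According to the methods, deletion was driven by LysM-Cre, which is active in myeloid cells and was carried in heterozygous form on a Lamtor1 flox/flox background. The methods name Lamtor1 flox/flox littermates without Cre as controls of the knockout mice and purchased C57BL/6J mice as wild type. The legend of the figure that holds the array comparison takes wild-type BMDMs as those of Lamtor1 flox/flox mice, and the array labels themselves give C57BL/6J and wild type without naming the floxed allele. Each condition was measured on 1 array, so no difference has a replicate check or a test, and precision is limited by the number of arrays. Whether mice were pooled is not given in the sources used here.

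The V-ATPase is a rotary pump in which the V1 sector in the cytosol hydrolyses ATP and the V0 sector in the membrane moves protons into the lysosome. It binds the Ragulator, a pentamer of Lamtor1 to Lamtor5 that Lamtor1 anchors to the lysosomal surface. The Ragulator holds heterodimers of RagA or RagB with RagC or RagD, which recruit mTORC1 when amino acids are plentiful so that Rheb can activate it. FLCN with FNIP1 or FNIP2 acts on RagC and RagD, whereas sestrins and the TSC complex restrain the pathway. Active mTORC1 keeps the factors TFEB, TFE3 and MITF out of the nucleus by phosphorylation, and these factors bind CACGTG elements near many lysosomal genes.

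Levels are given as normalized signal, which is the processed signal of a probe divided by the 75th percentile of its array, in the order WT M1, WT M2, KO M2 and Torin1 M2. A ratio is the log2 of 1 condition over WT M2 for the same probe, so that all 3 comparisons share the WT M2 array, and levels of different probes are not compared. A gene was called higher or lower at 2-fold or more, and where 1 array was not well above background the ratio is a bound against the lowest signal that was. Probes spotted at least 8 times gave a technical SD of the log2 ratio of 0.087 for KO M2, 0.092 for Torin1 M2 and 0.097 for WT M1, which covers the spotting only and not the spread between cultures.

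Among all genes measured on at least 1 array of a pair, 9.50% were called higher and 9.24% lower in KO M2 than in WT M2 (15166 genes). For Torin1 M2, 12.7% were called higher and 14.3% lower (15518 genes), and for WT M1 28.0% were called higher and 25.4% lower (15648 genes). Against these shares, 10 of the 48 members measured (20.8%) were called higher and 3 (6.25%) lower in KO M2. In Torin1 M2, 5 members (10.4%) were called higher and 3 (6.25%) lower, both below the shares over all genes. In WT M1, 10 members (20.8%) were called higher and 9 (18.8%) lower, again both below the shares over all genes. The median log2 ratio of the members was 0.42 in KO M2, 0.35 in Torin1 M2 and 0.015 in WT M1, beside 0.085, 0.037 and 0.048 over all genes. Of the 48 members measured, 27 (56.2%) passed 2-fold in at least 1 comparison and 21 in none, beside 64.3% of the 16536 genes measured in any comparison.

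**Figure D1:**
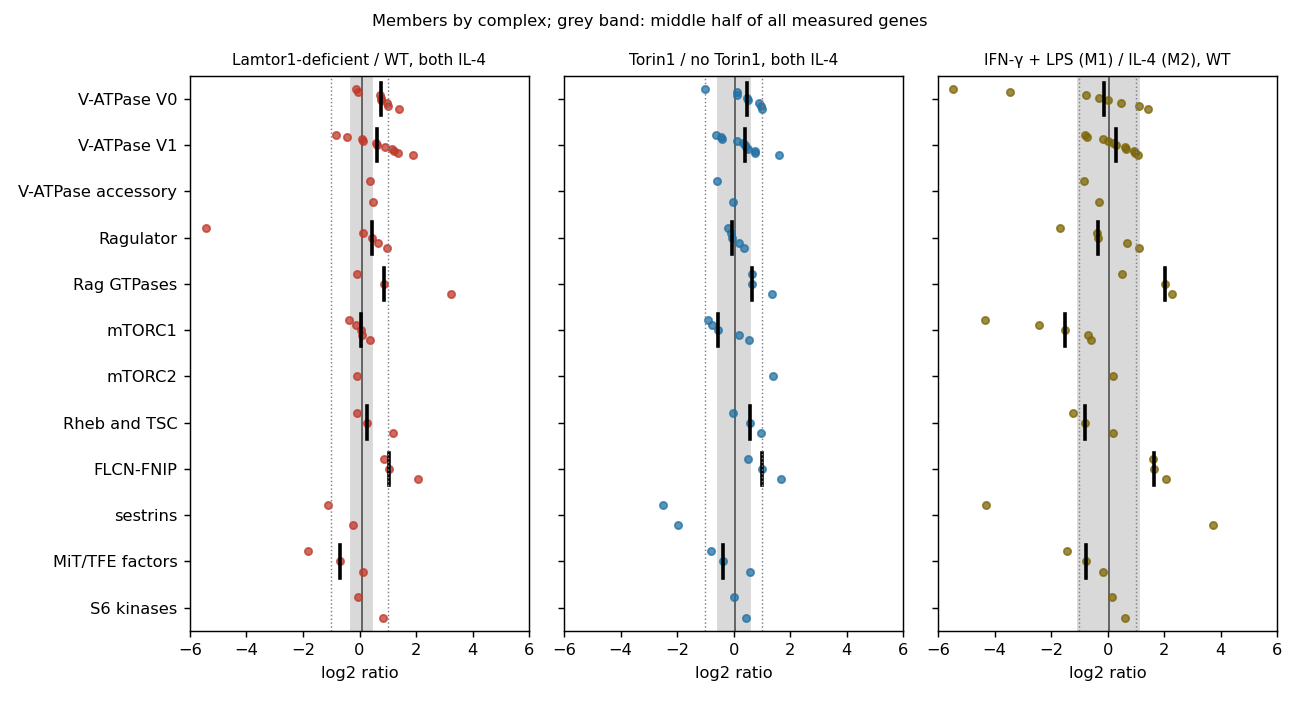
Log2 ratios over WT M2 (x axis) of the members of each complex (y axis) in KO M2 (left), Torin1 M2 (middle) and WT M1 (right), with 1 array per condition. Each point is a gene, short black lines mark medians of complexes with at least 3 measured genes, the grey band spans the 25th to 75th percentile of all measured genes with their median as a line, and dotted lines mark 2-fold. V-ATPase points lie mostly right of the all-gene median in KO M2 (median 0.71 against 0.085) and less so in Torin1 M2 (0.40 against 0.037), and the band is widest for WT M1.

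The direction of the WT M1 comparison depended on how the arrays were put on a common scale. With each array shifted to its median instead of its 75th percentile, the median over all genes moved from 0.048 to -0.69 in WT M1 and from 0.037 to -0.21 in Torin1 M2. In WT M1, 4 members (8.33%) were then called higher and 21 (43.8%) lower, beside 12.5% and 42.5% of all genes. With quantile normalization they were 6 (12.5%) and 12 (25%), beside 20.6% and 29.5% of all genes. The members' shares thus moved with those of all genes. In Torin1 M2, 4 members (8.33%) were called higher and 5 (10.4%) lower with the median shift, beside 8.75% and 19.5% of all genes. When the 75th percentile was taken only over probes above background on every array, 8 (16.7%) were higher and 2 (4.17%) lower, beside 14.5% and 12.8%. Quantile normalization gave 6 (12.5%) and 2 (4.17%), beside 11.7% and 15.0%, and normexp background correction gave 3 (6.25%) and 1 (2.08%), beside 8.55% and 10.6%. The share of members called lower in Torin1 M2 was thus below that of all genes in each of these settings, while the share called higher lay on either side of it. In KO M2 the same alternatives gave 7 to 12 members higher (14.6% to 25%) and 2 or 3 lower (4.17% to 6.25%), beside 6.71% to 10.4% and 6.14% to 9.96% of all genes.

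All 7 macrophage markers (Cd68, Csf1r, Emr1, Itgam, Mertk, Cd14 and Lyz2) were well above background on the 4 arrays, and their summed normalized signal ranged from 446 in WT M1 to 794 in WT M2. Such sums follow the brightest probes, and Csf1r alone supplied 206 in WT M1 and 485 in WT M2. In KO M2, Emr1, which encodes F4/80 (log2 ratio -2.57), and Cd14 (-1.86) were called lower, Csf1r (-0.44) and Itgam (-0.81) were below 0, and Cd68 (0.55), Lyz2 (0.70) and Mertk (0.34) were above it. In Torin1 M2, Emr1 was at -2.81 and 5 of the 7 lay above 0. In WT M1, 2 were called lower and 0 higher. Cd68 (0.56), Mertk (0.42) and Cd14 (0.27) lay above 0 there and the other 4 below it. Neutrophil markers differed between the arrays. The sum over Mpo, Camp, Ngp and S100a8 was 20.2 in WT M2 and between 3.01 and 3.71 in the other conditions. S100a8 supplied 14.7 of the 20.2 in WT M2 and 3.18 of the 3.71 in KO M2, and each of the 4 was called lower in all comparisons. Elane, the other neutrophil marker on the array, ran the other way, with 12.4 in WT M2, 18.6 in KO M2 and 52.1 in WT M1, and it has no Torin1 M2 value because its spot was marked as an outlier. Fibroblast markers summed to 43.4 in WT M2, 56.7 in KO M2, 15.5 in Torin1 M2 and 16.2 in WT M1, and all 6 passed the background limit on each array with IL-4. Col1a2 supplied 30.9 of the WT M2 sum. In KO M2, Dcn (3.77-fold), Pdgfra (2.74-fold) and Thy1 (3.98-fold) were called higher while the 3 collagen genes were within 2-fold, and the median log2 ratio of the list was 1.02. In WT M1, Dcn was 5.86-fold higher, against the direction of the sum. Of the lymphocyte markers, the B cell gene Ms4a1 was not well above background on any array, while Cd79a, of the B cell receptor, had log2 ratios of -1.84 in KO M2, -1.61 in Torin1 M2 and -0.43 in WT M1. The T cell gene Cd3e had -0.02, -0.26 and 0.75, and Cd3g and Cd8a were well above background only in KO M2, at least 1.79-fold and 2.37-fold higher than in WT M2. The part of these marker differences in the ratios given here was not tested, and in bulk RNA fewer cells of a type and less RNA per cell cannot be told apart.

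Promoter sequence is shown for members in which CACGTG lies near the start, because genes of the lysosome with this element are known targets of TFEB, TFE3 and MITF. RefSeq windows on GRCm38.p6 from 250 bases before to 50 bases after a gene's start were available for 43 of the 53 members. Those without a window were Atp6v1c1, Atp6v1g1, Atp6v1h, Atp6v1b2, Atp6v0a2, Atp6v0d2, Atp6ap1l, Lamtor3, Deptor and Rps6kb2, and the medians below leave them out. The element CACGTG, which reads the same on both strands, was found in the windows of 10 of them (23.3%) and of 8.09% of all 27025 genes with a window. The longer form TCACGTGA, which contains it, was found for 3 members (6.98%) and for 1.12% of all genes. Stretches of 6 windows follow, 5′ to 3′ on the gene's strand, with the element in capitals.
Atp6v0d1 (chr8:105566045-105566094, minus strand): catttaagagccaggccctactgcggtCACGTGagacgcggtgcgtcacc
Atp6v0e (chr17:26676372-26676415, plus strand): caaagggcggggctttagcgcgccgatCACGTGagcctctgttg
Atp6v1a (chr16:44139358-44139417, minus strand): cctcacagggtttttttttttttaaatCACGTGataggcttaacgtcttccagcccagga
Atp6v0b (chr4:117887315-117887392, minus strand): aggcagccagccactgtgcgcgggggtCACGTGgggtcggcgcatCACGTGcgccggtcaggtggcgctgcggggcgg
Rragc (chr4:123917294-123917353, plus strand): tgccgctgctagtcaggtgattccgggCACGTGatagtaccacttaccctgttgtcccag
Fnip1 (chr11:54438077-54438136, plus strand): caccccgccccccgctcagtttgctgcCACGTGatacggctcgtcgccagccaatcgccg
The stretches of Atp6v0d1, Atp6v0e and Atp6v1a hold the longer form. The 6 genes shown had log2 ratios from 0.59 (Atp6v1a) to 1.40 (Atp6v0d1) in KO M2 and do not stand for all holders. The holders not shown were Lamtor1 (-5.42), Lamtor4 (0.12), Rheb (0.26) and Rragb, which was not measured. The windows of Rragd, Flcn, Fnip2, Atp6v0c, Atp6v1d and Atp6v1f hold no CACGTG. In KO M2 the median log2 ratio was 0.71 over the 9 measured members with the element, among them the deleted Lamtor1. It was 0.25 over the 30 with a window that lacks it. Over all measured genes these medians were 0.17 (1266 genes) and 0.08 (10229 genes). In Torin1 M2 the members' medians were 0.65 and 0.25, beside 0.02 and 0.01 over all genes. In WT M1 they were 0.19 and -0.22, beside -0.16 and 0.04 over all genes. In KO M2, 2 of the 9 holders and 6 of the 30 others were called higher, and 1 and 2 lower. Over all 1266 and 10229 genes these were 139 and 925 higher, and 81 and 907 lower. In Torin1 M2, 1 of 9 and 3 of 30 were called higher, and 0 and 2 lower. Over all 1275 and 10423 genes these were 166 and 1206 higher, and 149 and 1495 lower. In WT M1, 2 of 9 and 7 of 30 were called higher, and 1 and 6 lower. Over all 1285 and 10507 genes these were 305 and 2866 higher, and 391 and 2664 lower. These are descriptions of letters in a window, and binding was not measured.

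V-ATPase genes made up 6 of the 10 members called higher in Lamtor1-deficient BMDMs under IL-4. Of the 21 V-ATPase genes measured, these 6 (28.6%) were called higher and 0 lower in KO M2, beside 9.50% and 9.24% of all genes, and the median was 0.71. A ratio above 0 was found for 17 of the 21, 1 of them (Atp6v1b2) by less than the technical SD, and for 8576 of all 15166 genes. In Torin1 M2, 15 lay above 0, beside 8018 of all 15518 genes, with a median of 0.40. Of these, Atp6v0a1, Atp6v0e2 and Atp6v1b2 fell below 0 with the median shift. The 1 gene called in each direction is a share below the 12.7% and 14.3% of all genes. In WT M1 the median was 0.030, 3 genes were called higher and 2 lower, again below the 28.0% and 25.4% of all genes, and the largest differences were those of 2 V0 isoforms that were low in M1. The number called higher in KO M2 was 4 (19.0%) with quantile normalization and 7 (33.3%) with the median shift, beside 8.63% and 10.4% of all genes. The WT M1 split was 0 higher and 8 (38.1%) lower with the median shift, beside 12.5% and 42.5% of all genes. With quantile normalization it was 0 and 5 (23.8%), beside 20.6% and 29.5%. After normexp it was 1 (4.76%) and 2 (9.52%), beside 22.5% and 21.3%. Each of these WT M1 shares was below that of all genes. The KO M2 median stayed between 0.57 and 0.78 under the 7 other ways of processing the signals, whereas that of Torin1 M2 ranged from 0.13 to 0.48 and that of WT M1 from -0.62 to 0.03.

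**Figure D2:**
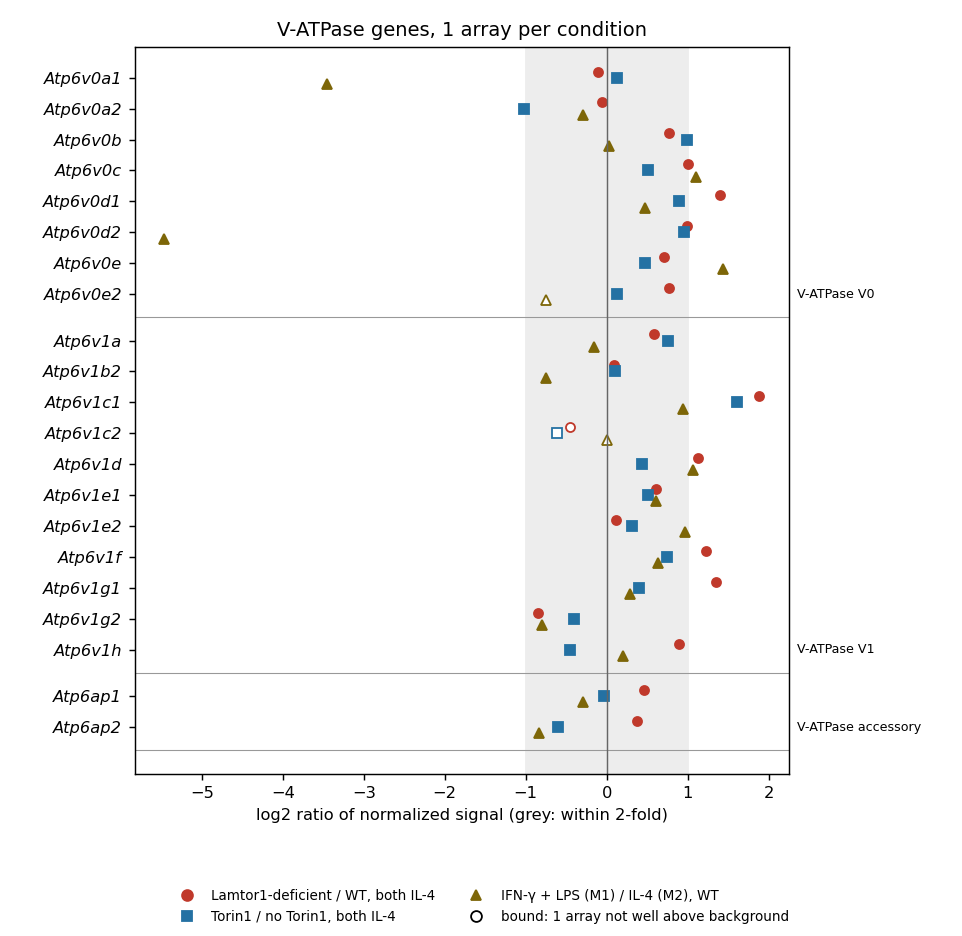
Log2 ratio over WT M2 (x axis) of each measured V-ATPase gene (y axis), by sector, with circles for KO M2, squares for Torin1 M2 and triangles for WT M1. Open symbols are bounds, the grey band is within 2-fold, and there was 1 array per condition. Circles lie right of the band for 6 genes, from Atp6v0c at 1.01 to Atp6v1c1 at 1.88, and the triangles of Atp6v0d2 (-5.46) and Atp6v0a1 (-3.46) lie far to the left.

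In the membrane sector, Atp6v0d1 encodes the widely expressed d subunit, which couples the rotor to the proteolipid ring. Its normalized signal was 46.2 in WT M1, 33.2 in WT M2, 87.6 in KO M2 and 61.7 in Torin1 M2. KO M2 was the highest of the 4 arrays, 2.64-fold above WT M2, and Torin1 M2 lay 1.86-fold above it. Atp6v0c, which encodes the proteolipid that forms the proton-carrying ring, gave 503, 233, 468 and 331 in the same order. It passed 2-fold in KO M2 by a small margin (2.01-fold) and in WT M1 (2.16-fold), and both calls were lost with quantile normalization, the former also with the 75th percentile over probes above background and the latter with the median shift and normexp. Atp6v0e, a small V0 subunit, gave 549, 204, 334 and 283, with WT M2 the lowest array. Its log2 ratios were 0.71 in KO M2, 0.47 in Torin1 M2 and 1.43 in WT M1, and the last was within 2-fold with a median shift or quantile normalization. Atp6v0b, another proteolipid, was highest in Torin1 M2 (93.9) and KO M2 (80.7), with ratios of 0.99 and 0.78. The former passed 2-fold when the 75th percentile was taken over probes above background.

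The isoforms of the a and d subunits followed other patterns. Atp6v0d2 encodes a d isoform that is abundant in osteoclasts and in some macrophages. Its normalized signal was 2.33 in WT M1, 103 in WT M2, 204 in KO M2 and 199.7 in Torin1 M2. It was thus 44.1-fold lower in WT M1 than in WT M2, and the 2 treated or deficient IL-4 arrays were about equally bright, with ratios of 0.99 and 0.96. A separate probe of the gene gave -6.73 in WT M1, 0.99 in KO M2 and 1.30 in Torin1 M2, so that the Torin1 difference lay on either side of 2-fold by probe. Atp6v0a1 encodes an a subunit, which forms the proton path together with the ring. It gave 18.0 in WT M1 and 198, 183 and 216 on the IL-4 arrays, which differed little from one another, and WT M1 was 11.0-fold below WT M2. Atp6v0a2, a further a isoform, gave 1.77, 2.17, 2.09 and 1.07. Torin1 M2 was the lowest array at 2.03-fold below WT M2, a call that was lost with quantile normalization, with normexp and with the 75th percentile over probes above background. Tcirg1, the a3 isoform of osteoclasts and macrophages, falls outside the naming rule and had ratios of 0.19 in KO M2, 0.81 in Torin1 M2 and 0.45 in WT M1.

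In the V1 sector, the largest V-ATPase difference under IL-4 was that of Atp6v1c1, whose product, the C subunit, holds the V1 and V0 sectors together and leaves when they come apart. Its normalized signal was 43.2 in WT M1, 22.4 in WT M2, 82.6 in KO M2 and 68.5 in Torin1 M2. WT M2 was the lowest array, with KO M2 3.69-fold and Torin1 M2 3.06-fold above it. Atp6v1c1 was also the only V-ATPase gene called higher in Torin1 M2 in the setting used here. The probe matches mm9 at chr15:38621773-38621832. Atp6v1c2, the other C isoform, was well above background only in WT M2 and near the lower limit there.

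Subunits of the rotor and of the peripheral stalks were also among those called higher in KO M2. Atp6v1d, of the central rotor, gave 109, 52.3, 115 and 70.7 on the 4 arrays, with WT M1 and KO M2 close together and WT M2 the lowest. It was 2.19-fold higher in KO M2, which was lost with quantile normalization, and 2.09-fold higher in WT M1, which was lost with the median shift, quantile normalization and normexp. Atp6v1f, also of the rotor, gave 211, 136, 319 and 228, and KO M2 was the highest array at 2.34-fold above WT M2. Atp6v1g1, of the peripheral stalks, gave 76.7, 62.7, 161 and 82.8. Here KO M2 stood apart at 2.56-fold above WT M2, while Torin1 M2 had a log2 ratio of 0.40. The catalytic subunit gene Atp6v1a had ratios of 0.59 in KO M2 and 0.76 in Torin1 M2, and Atp6v1b2, which encodes the B subunit that alternates with it, had 0.09 and 0.11. The regulatory H subunit gene Atp6v1h was at 0.89 in KO M2 and -0.45 in Torin1 M2. Atp6v1e1, of the stalks, was at 0.62 in KO M2, 0.52 in Torin1 M2 and 0.61 in WT M1, but it fell to 0.27 in Torin1 M2 and to -0.21 in WT M1 with the median shift. The dim genes Atp6v1g2 and Atp6v1e2 had ratios of -0.85 and 0.12 in KO M2.

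Both measured accessory subunits were within 2-fold in the 3 comparisons. Atp6ap1, which aids assembly of the pump, had ratios of 0.46, -0.03 and -0.30 in KO M2, Torin1 M2 and WT M1. Atp6ap2, the prorenin receptor, had 0.37, -0.60 and -0.83. In WT M1 both passed 2-fold with the median shift (-1.12 and -1.66), and Atp6ap2 also with quantile normalization.

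Among the Ragulator genes, Lamtor1 was first read as a check of the labels. Its normalized signal was 51.2 in WT M1, 66.3 in WT M2, 1.55 in KO M2 and 74.96 in Torin1 M2. The KO M2 array was the only low one, 42.7-fold below WT M2, and kept 2.34% of its level while still well above background. The probe lies at chr7:109060334-109060393 of mm9, and which exons the deletion removes is not given in the sources used here.

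The other 4 Ragulator genes were not lower in KO M2. Their log2 ratios ran from 0.12 to 0.96 with a median of 0.55, beside 0.085 over all genes, and the median was 0.35 with quantile normalization. Lamtor3, the MP1 scaffold subunit, gave 149 in WT M1, 68.5 in WT M2, 133 in KO M2 and 88.7 in Torin1 M2. It was 1.94-fold higher in KO M2, just under the limit, and 2.18-fold higher in WT M1. Its 3 probes gave ratios from 0.85 to 1.04 in KO M2 and from 1.08 to 1.13 in WT M1, and the WT M1 call was lost with the median shift, quantile normalization and normexp. Lamtor2 gave 32.7, 41.3, 64.6 and 35.8, and KO M2 was the highest array with a ratio of 0.65. Lamtor5 gave 58.2, 36.2, 49.6 and 34.5, with WT M2 and Torin1 M2 at nearly the same level. Lamtor4 gave 15.0, 47.9, 52.1 and 44.8, so that the IL-4 arrays were alike and WT M1 was 3.19-fold below WT M2. In Torin1 M2 the median over these 4 genes was -0.082, and it ranged from -0.33 to 0.00 under the other ways of processing the signals.

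**Figure D3:**
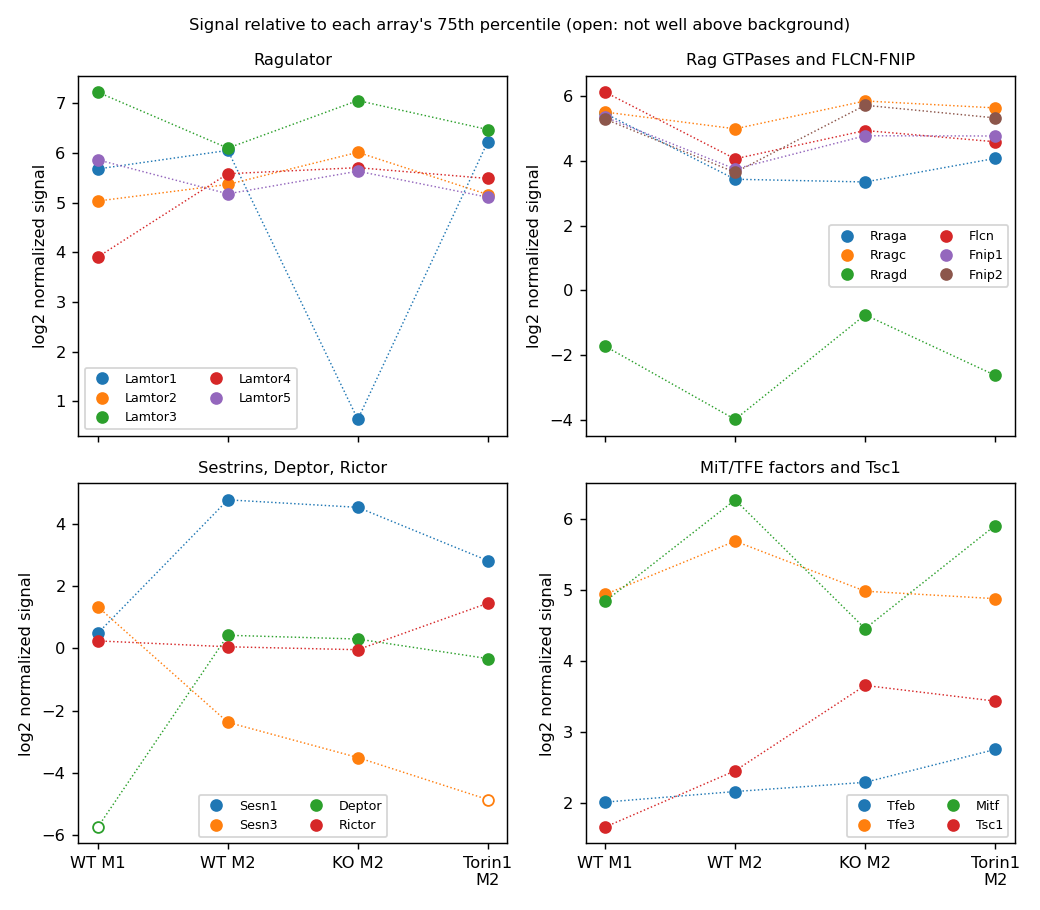
Log2 normalized signal (y axis, 0 being the 75th percentile of the array) on the arrays WT M1, WT M2, KO M2 and Torin1 M2 (x axis) for selected Ragulator, Rag, FLCN-FNIP, sestrin, Deptor, Rictor, MiT/TFE and Tsc1 probes, with 1 array per condition. Dotted lines join the values of 1 gene, open points are not well above background, and heights are not comparable between genes. Lamtor1 drops in KO M2 alone, Rragd is highest there, Sesn1 is high on the WT M2 and KO M2 arrays, and Mitf is lowest in KO M2 at this scaling.

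Among the Rag GTPase genes, the highest ratio in KO M2 was that of a dim gene. Rragd, which encodes RagD, gave 0.303 in WT M1, 0.0633 in WT M2, 0.593 in KO M2 and 0.163 in Torin1 M2. WT M2 was the lowest array and KO M2 the highest, 9.37-fold apart, and Torin1 M2 lay 2.57-fold and WT M1 4.79-fold above WT M2. The probe was well above background on all arrays but dim, with a processed signal of 37.6 in WT M2 against a lowest accepted signal of 21.6. After normexp correction, which compresses low signals, the log2 ratio was 1.95 in place of 3.23 in KO M2 and 0.74 in place of 1.36 in Torin1 M2, so that the latter call was lost. In KO M2 its ratio was the largest among the members before that correction, and after it Fnip2 had the larger one (2.06). The Rragd probe lies at chr4:33106184-33106243 of mm9.

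Rragc, which encodes RagC, gave 45.5, 31.8, 57.7 and 49.7, and was 1.82-fold higher in KO M2 and 1.56-fold higher in Torin1 M2 than in WT M2. Its other probe gave 0.78 and 0.31 on the log2 scale in these comparisons and 1.13 in WT M1, where the probe used gave 0.52. Rraga, which encodes RagA, gave 44.1, 10.8, 10.2 and 16.9. It was 4.09-fold higher in WT M1 than in WT M2 and did not pass 2-fold on the other arrays, with ratios of -0.08 in KO M2 and 0.64 in Torin1 M2. The WT M1 ratio of Rraga stayed between 1.21 and 2.04 over the other settings.

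The genes of the FLCN-FNIP complex, a GTPase-activating complex for RagC and RagD, had ratios above 0 in every comparison, with medians of 1.03 in KO M2, 1.02 in Torin1 M2 and 1.65 in WT M1. Fnip2 gave 39.1 in WT M1, 12.5 in WT M2, 52.6 in KO M2 and 40.1 in Torin1 M2. WT M2 was the lowest array, below KO M2 by 4.21-fold, Torin1 M2 by 3.21-fold and WT M1 by 3.13-fold. Fnip1 gave 40.9, 13.4, 27.4 and 27.2, with KO M2 and Torin1 M2 at the same level and WT M2 again the lowest. It was 2.04-fold and 2.03-fold higher in KO M2 and Torin1 M2, which was lost in KO M2 with 3 alternatives and in Torin1 M2 with 2. Flcn gave 69.6, 16.7, 30.6 and 24.1, and was 1.83-fold higher in KO M2, 1.44-fold in Torin1 M2 and 4.16-fold in WT M1. With the median shift the WT M1 ratios of Fnip1 and Fnip2 were within 2-fold.

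**Figure D4:**
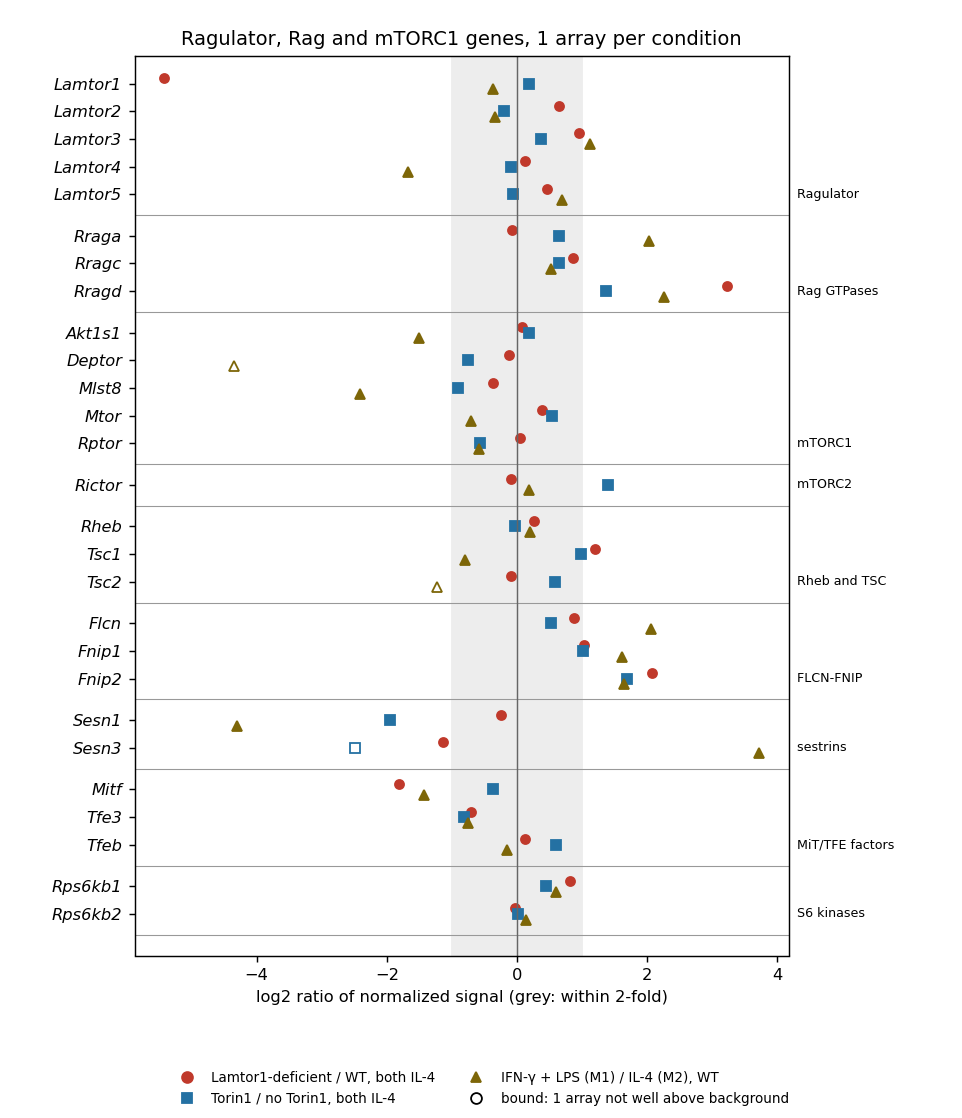
Log2 ratio over WT M2 (x axis) of each measured member outside the V-ATPase (y axis), by complex, with circles for KO M2, squares for Torin1 M2 and triangles for WT M1. Open symbols are bounds, the grey band is within 2-fold, and there was 1 array per condition. Lamtor1 (-5.42) and Rragd (3.23) are the outermost circles, Sesn3 (at -2.49, a bound) and Sesn1 (-1.96) the squares farthest left, and the mTORC1 triangles all lie below 0.

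The genes of the TSC complex, which switches Rheb off, differed from one another. Tsc1 gave 3.16 in WT M1, 5.48 in WT M2, 12.6 in KO M2 and 10.8 in Torin1 M2. The KO M2 and Torin1 M2 arrays were higher than both wild-type arrays without inhibitor, by 2.30-fold and 1.97-fold over WT M2. Tsc2, its partner, gave 0.171 in WT M2, 0.160 in KO M2 and 0.256 in Torin1 M2, and 0.0728 in WT M1, where it was not well above background. It was at least 2.35-fold lower there, a call that was lost with normexp. Rheb, the GTPase that activates mTORC1, gave 9.84, 8.61, 10.3 and 8.39 and was nearly level across the arrays.

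None of the genes of the kinase complex itself passed 2-fold under IL-4 in the setting used here. Mtor gave 0.640 in WT M1, 1.05 in WT M2, 1.37 in KO M2 and 1.53 in Torin1 M2, all within 2-fold of WT M2. Rptor, which encodes the raptor scaffold, gave 5.51, 8.24, 8.52 and 5.57, with WT M1 and Torin1 M2 at the lower level. All 5 mTORC1 genes had ratios between -0.36 and 0.38 in KO M2 and below 0 in WT M1. Mlst8, a subunit shared with mTORC2, gave 1.11, 5.91, 4.59 and 3.14 and was 5.34-fold lower in WT M1. Its ratio in Torin1 M2 was -0.91, and -1.16 with the median shift. Akt1s1, which encodes the inhibitor PRAS40, gave 0.360, 1.02, 1.07 and 1.15 and was 2.83-fold lower in WT M1. Deptor, an inhibitor of mTOR, gave 0.0186 in WT M1, where it was not well above background, and 1.34, 1.23 and 0.797 in WT M2, KO M2 and Torin1 M2. In WT M1 it was at least 20.4-fold lower than in WT M2, a log2 bound of -4.35 that ranged from -5.17 to -1.38 over the other settings. A dimmer second probe gave 1.59, so the probes disagreed in direction. Rictor, the scaffold of mTORC2, gave 1.18, 1.04, 0.971 and 2.74. Torin1 M2 stood apart at 2.64-fold above WT M2, and its log2 ratio ranged from 1.15 to 1.49 over the other settings.

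The sestrin genes, whose products restrain mTORC1 through GATOR2, differed widely, and Sesn1 and Sesn3 are the members. Sesn2, from the list of further genes below, had ratios of 0.84 in KO M2, 0.19 in Torin1 M2 and 2.91 in WT M1. Sesn1 gave 1.40 in WT M1, 27.5 in WT M2, 23.3 in KO M2 and 7.09 in Torin1 M2. The KO M2 array was close to WT M2, while Torin1 M2 was 3.88-fold and WT M1 19.6-fold lower. Sesn3 gave 2.53 in WT M1, 0.192 in WT M2 and 0.0876 in KO M2, and 0.0343 in Torin1 M2, where it was not well above background. It ran opposite to Sesn1 in WT M1, 13.2-fold higher than in WT M2, and was 2.19-fold lower in KO M2 and at least 5.60-fold lower in Torin1 M2. The lower calls of this dim gene in KO M2 and Torin1 M2 were both lost after normexp, and the former also with quantile normalization.

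The MiT/TFE genes, whose products mTORC1 regulates mainly as proteins, were not called higher in any comparison. Mitf gave 28.6 in WT M1, 76.9 in WT M2, 21.9 in KO M2 and 59.8 in Torin1 M2. The KO M2 array was the lowest in the setting used here, 3.51-fold below WT M2, while Torin1 M2 lay near WT M2 with a ratio of -0.36. WT M1 was 2.69-fold below WT M2. With the median shift WT M1 was the lowest array, at -2.25 against -1.75 in KO M2. The other Mitf probe gave -1.82 in KO M2 and -0.06 in Torin1 M2, and the KO M2 ratio stayed between -2.01 and -1.75 over the settings. Tfe3 gave 30.6, 51.4, 31.6 and 29.3, so that WT M2 was the highest array and the others lay close together, with ratios of -0.70, -0.81 and -0.75 in KO M2, Torin1 M2 and WT M1. Its other probe gave -0.80, -0.49 and -1.15, the last past 2-fold, and with the median shift Tfe3 was called lower in Torin1 M2 (-1.06) and WT M1 (-1.57). Tfeb gave 4.03, 4.47, 4.89 and 6.74 and was within 2-fold throughout. Of the S6 kinases, which mTORC1 phosphorylates, Rps6kb1 had ratios of 0.81, 0.45 and 0.60 and Rps6kb2 of -0.04, 0.01 and 0.14. In WT M1 the probes of Rps6kb1 disagreed in direction, with values from -1.07 to 1.60.

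**Figure D5:**
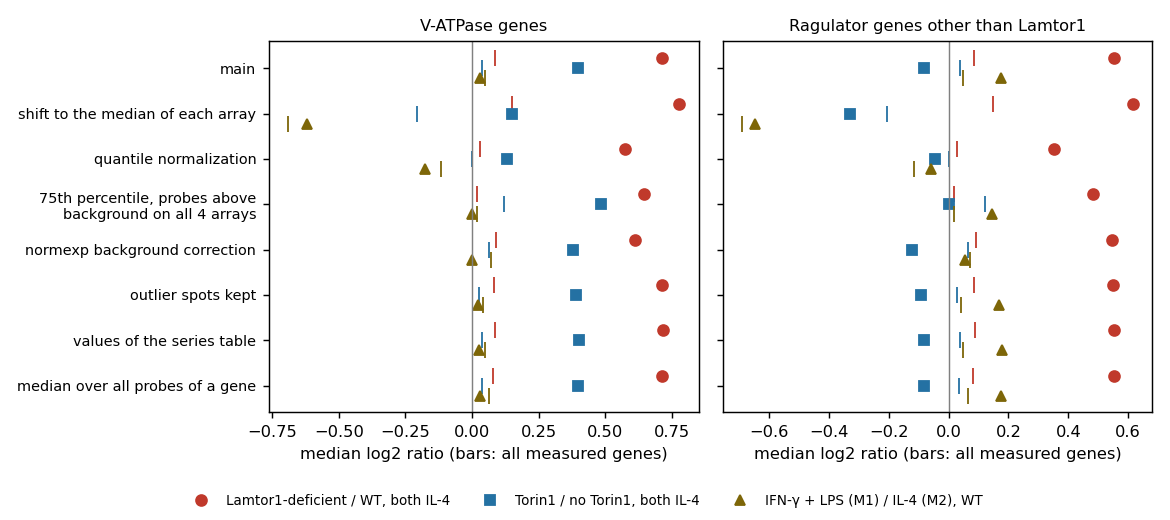
Median log2 ratio over WT M2 (x axis) of the V-ATPase genes (left) and of the Ragulator genes other than Lamtor1 (right) under 8 ways of processing the signals (y axis), with circles for KO M2, squares for Torin1 M2 and triangles for WT M1, and upright bars for the median of all measured genes in the same comparison. The circles stay right of their bars in every setting, at 0.57 to 0.78 for the V-ATPase and 0.35 to 0.62 for the Ragulator, and the triangles move with their bars, to -0.62 and -0.65 with the median shift.

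The wider pathway was read from a list of 59 further genes, of which 58 were on the array and all of these were measured. In KO M2, 6 were called higher and 1 lower with a median of 0.20, in Torin1 M2 8 and 5 with a median of 0.07, and in WT M1 12 and 15 with a median of 0.02. These shares were close to or below those over all genes in each comparison and direction. The list held 11 genes of GATOR1, GATOR2 and KICSTOR, the complexes that relay amino acid levels to the Rags. Of these, 0 passed 2-fold in KO M2 or Torin1 M2, beside 18.7% of all genes in KO M2 and 12.7% higher and 14.3% lower in Torin1 M2. Wdr59 of GATOR2 lay just under the limit in KO M2, with a log2 ratio of 0.99, as did Itfg2 of KICSTOR in Torin1 M2, also with 0.99, and both are named for that closeness. With the median shift Wdr59 was called higher in KO M2 and Sec13 and Kptn lower in Torin1 M2, and with the 75th percentile over probes above background Itfg2 was called higher in Torin1 M2.

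Among genes of lysosomal calcium and positioning, Mcoln1, which encodes the lysosomal calcium channel TRPML1, gave 45.3 in WT M1, 21.9 in WT M2, 58.1 in KO M2 and 68.0 in Torin1 M2. WT M2 was the lowest array, with log2 ratios of 1.41 in KO M2 and 1.63 in Torin1 M2. Arl8b, a GTPase that moves lysosomes outward, gave 29.1, 24.8, 100.3 and 34.9, with KO M2 alone at 4.05-fold above WT M2. Of the amino acid transporters, Slc7a11, the cystine importer, had ratios of 1.45 in KO M2 and 2.76 in Torin1 M2, and its partner chain Slc3a2 had 0.42 and 1.00. Slc36a4 had 1.38 and 0.94 and Slc36a1, a proton-coupled transporter of the lysosome, had -1.02 and -1.03. Gatsl3, which encodes the arginine sensor CASTOR1, had 1.12 and 1.03, and its relative Gatsl2 had -0.63 and -2.69.

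Several genes passed 2-fold in Torin1 M2 and not in KO M2, though the difference between the comparisons, which share the WT M2 array, was not tested. Ddit4, which encodes the stress-induced mTORC1 inhibitor REDD1, had a ratio of -0.45 in KO M2 and -2.21 in Torin1 M2. Prr5l, of mTORC2, had -0.53 and -2.78, and Pik3cd, a catalytic subunit of PI3 kinase, had -0.84 and -1.58. On the higher side, Pdcd4, an inhibitor of translation, had 0.20 and 1.52, Eif4ebp3 had 0.15 and 1.32, Rhebl1 had -0.20 and 1.18, and the ribosomal protein gene Rps6 had 0.52 and 1.12. Ddit4l, a dim gene, had 1.01 in KO M2 and was not well above background in Torin1 M2.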

How the data were processed

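Cy3-labelled RNA of each condition was hybridized to 1 Agilent whole mouse genome array, 4 arrays in all. The deposited scanner files hold a processed intensity per spot, which the authors' software corrected for background and did not normalize between arrays. The files name Feature Extraction 10.7.3.1, whereas the methods and the submitters' processing notes name 10.5.1.1. A deposited table of the whole series, also intensities, differed from the scanner files by at most 0.497%.

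Outlier spots (non-uniform or deviating from other spots of their probe) were dropped, spots of a probe were averaged, signals under 1.0 were set to 1.0, and each array was divided by its 75th percentile over non-control probes (287 for WT M1, 595 for WT M2, 536 for KO M2 and 470.0 for Torin1 M2) before log2 was taken. Of 55681 probes per array, 50.9% to 55.4% were well above background. Where a gene had several probes, the brightest by mean log2 signal over the 4 arrays stood for it. Of the members, 41 had 1 probe and 12 more. A ratio was kept where a probe was well above background on at least 1 of the arrays compared, a filter that the methods do not name, and a dim side was raised to at least the lowest signal well above background (18.8, 21.6, 20.1 and 15.7 in the same order of arrays).

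Each condition was compared with WT M2 at the 2-fold threshold that the study used for its array comparison. With 1 array per condition no test was run. The members and lists were chosen with earlier results of these data known. Normalized signals on all 4 arrays were given for each member past 2-fold in any comparison, for each Ragulator and Rag gene above background and for Mtor, Rptor, Rheb, Tfeb, Tfe3, Mitf and Flcn. Of the further pathway genes, those past 2-fold in an IL-4 comparison were named, and Tcirg1, Sesn2, Wdr59, Itfg2, Sec13 and Kptn besides. Another 7 members were matched under the array's older names, and the listed genes Tti2 and Ly6g were not matched. Probe coordinates are the array annotation's on mm9, and promoters are RefSeq's on GRCm38.p6. A listed marker gene is not reported here. Exon and UTR positions of probes were not analysed here.

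The 11 alternatives were a median shift, quantile normalization, the 75th percentile over probes above background on all arrays, normexp with an offset of 50, outlier spots kept, the series table, all probes of a gene, no filter on dim probes, a filter on both arrays, measured ratios in place of bounds, and a 3-fold threshold. The procedure was tested on simulated data. Calculations were made in Python 3.11.15 (NumPy 2.4.6, pandas 2.3.3, matplotlib 3.10.9) and in R 4.3.3 (limma 3.58.1).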

Additional observations from a re-analysis of the deposited data

How the results depend on the processing

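Of the 13 members called in KO M2, 9 to 13 kept their call under the other ways of processing the signals, as did 4 to 8 of 8 in Torin1 M2 and 13 to 19 of 19 in WT M1, and no called ratio changed sign. With a 3-fold threshold the counts were 5 (10.4% of the 48 members measured), 4 (8.33%) and 12 (25%), beside 9.74%, 13.1% and 32.7% of all genes. After normexp 4 members (8.33%) were called in Torin1 M2, beside 19.2% of all genes. The V-ATPase median in KO M2 was 0.57 with quantile normalization and 0.61 after normexp. In Torin1 M2 it was 0.15 with the median shift and 0.13 with quantile normalization, and in WT M1 it was -0.62 and -0.18. For the Ragulator genes other than Lamtor1, the median was 0.35 in KO M2 with quantile normalization and -0.33 in Torin1 M2 with the median shift. In WT M1 it was -0.65 with the median shift, -0.0581 with quantile normalization and 0.0538 after normexp. The median shift moves measured ratios of a comparison by the same amount, and the cause of the other changes was not tested. Of the ratios of single members recomputed under the alternatives, 761 moved by less than the technical SD and 247 by more. Relative to all genes, the V-ATPase median in KO M2 was higher by 0.52 to 0.63 on the log2 scale in all of these settings. No paired analysis was possible because each condition had 1 array. The ratios of dim probes such as those of Rragd and Sesn3 rest on signals near the background limit.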
